A study of Mus musculus with 8 samples.

Results

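The Rab GTPases of membrane traffic were examined in mouse bone marrow-derived macrophages (BMDMs) that carried a conditional knockout of PTIP and were exposed to bacterial lipopolysaccharide (LPS). Members were the genes of the expression table whose symbol is Rab with a number, an optional lower-case letter and an optional l with a number, and whose mean expression over the 8 samples was at least 3 on the rlog scale. The rlog scale is the authors' regularised log2 transformation of expression. The table held 60 such symbols among 55226 genes, and 43 of them passed the minimum. The other 17 were below it, 1 of these with 0 listed in every sample. Rab3il1 matches the naming pattern but is an exchange factor that activates Rab proteins, so the 43 members are 42 GTPases and Rab3il1. The members nearest to the minimum were Rab43 at 3.20, Rab36 at 3.27 and Rab44 at 3.60. The closest genes below it were Rab37 at 2.93, Rab6b at 2.59 and Rab30 at 2.40. These levels chose the members and are given as a description.

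The 4 groups, with 2 samples each, were PtipcKO cells with LPS at 100 ng/ml for 6 h, PtipcKO cells at 0 h, PtipWT cells with the same LPS exposure and PtipWT cells at 0 h. They are called cKO and WT here. All mice had the C57BL/6 background, and all cells were grown from femoral marrow for 7 days with 10 ng/ml M-CSF, a growth factor for macrophages, and 10% serum. Poly(A) RNA was sequenced. The allele, the Cre driver, the age of the mice and whether a replicate number marks a mouse are not stated in the labels, so p-values measure only the spread between these samples. In bulk samples, fewer cells of a type and less RNA per cell cannot be told apart.

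Rab proteins are small GTPases that give membranes their identity. An exchange factor (GEF) loads a Rab with GTP on the right membrane, the GTP-bound Rab recruits effectors such as tethers and motor adaptors, and a GTPase-activating protein (GAP) ends the signal. GDI and REP proteins carry the lipid-modified, inactive form between membranes. In macrophages, Rab5 and Rab7 proteins mark successive stages of phagosome maturation, and other Rabs control the delivery of Toll-like receptors and the secretion of cytokines. PTIP, encoded by Paxip1, is a subunit of complexes that methylate histone H3 at enhancers and promoters.

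Samples of a group correlated at r between 0.9873 and 0.9923 over all tested genes. Paxip1 stood at 2.54 and 2.63 rlog in cKO LPS samples, 2.54 and 2.48 in cKO 0 h samples, 3.82 and 4.08 in WT LPS samples, and 4.50 and 4.50 in WT 0 h samples. No cKO sample reached the lowest WT sample. In the authors' deposited table the log2 fold change of Paxip1, cKO against WT, was -4.04 after LPS and -4.75 at 0 h. The adjusted p in that table was 0.00196 at 0 h and not under 0.05 after LPS. The rlog scale understates differences of low genes. On it, the difference between cKO and WT was -1.36 ± 0.18 log2 units after LPS and -1.99 ± 0.18 at 0 h (SE, n = 2 per group; limma adjusted p = 0.0156 and 0.00686). The Paxip1 call after LPS ended without cKO LPS sample 1 or 2 (adjusted p = 0.1 and 0.15) or WT LPS sample 1 (0.0642), and that at 0 h without cKO 0 h sample 2 (0.0625) or WT 0 h sample 1 (0.0732). All 8 macrophage markers were present, at mean rlog 8.13 to 18.70, and no marker of T cells (5), fibroblasts (4) or erythroid cells (4) reached the minimum. Of the 7 neutrophil markers 2 did, S100a8 and Camp, while the defining marker Ly6g had a mean of -2.02. Their summed level, as log2, was 8.53 and 8.74 in cKO LPS, 7.93 and 8.0 in cKO 0 h, 7.55 and 8.06 in WT LPS and 6.77 and 7.36 in WT 0 h samples, and thus moved with genotype and with LPS. The summed macrophage markers were lower in cKO samples, at 18.42 to 18.73, than in WT samples, at 19.24 to 19.53. That sum is mostly Lyz2, at 18.13 to 18.46 in cKO and 18.996 to 19.307 in WT samples. Itgam was also lower in cKO, at 8.74 to 9.30 against 9.93 to 10.21 in WT, and Cd14 was lower in cKO at each time. Adgre1, Csf1r, Fcgr1 and Mertk were lower in cKO at 1 time and overlapped between genotypes at the other. Cd68 was not lower in cKO, at 14.67 to 14.83 against 14.42 to 14.73 in WT. Of the 4 dendritic cell markers 2 reached the minimum, and their sum was higher with LPS, at 4.97 and 5.09 in cKO and 5.14 and 5.66 in WT, than at 0 h, at 3.97 and 4.52 in cKO and 4.39 and 4.46 in WT. Of the 4 B cell markers 1 reached it, Cd79b, while Ms4a1 had a mean of -0.99. Their sum was lower with LPS, at 3.58 and 4.52 in cKO and 4.02 and 3.66 in WT, than at 0 h, at 5.04 and 5.23 in cKO and 5.22 and 4.69 in WT. Of the 4 mast cell and basophil markers 2 reached the minimum, and their sum was 5.10 and 5.30 in cKO LPS, 4.73 and 5.40 in cKO 0 h, 4.97 and 5.78 in WT LPS and 4.37 and 4.79 in WT 0 h samples, apart between times in WT only. The part of these markers in the results below was not tested.

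Levels of different genes were compared per length, as mean rlog minus log2 of the kilobases of exon. On this scale Rab7, the Rab of late endosomes and lysosomes, was highest at 11.41. Next came Rab1b at 10.93, which acts between the endoplasmic reticulum (ER) and the Golgi, and Rab8a at 9.72, which acts in traffic from the Golgi to the cell surface. Rab32 followed at 9.67, Rab1a at 9.39, Rab8b at 9.09 and Rab11a at 8.94. The lowest members were Rab36 at 0.64, Rab43 at 0.73 and Rab44 at 1.26. Members that neighbour each other in the genome (GRCm38) did not all move alike. Rab31 (chr17:65651729-65772752) and Rab12 (chr17:66494512-66519729) lie 721.8 kb apart, and LPS moved them in opposite directions, as described below. Rab7b and Rab29 lie closer, 151.8 kb apart, and only Rab7b was called after LPS. Rab43 and Rab7 lie 186.9 kb apart, and neither was called after LPS.

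**Figure D1:**
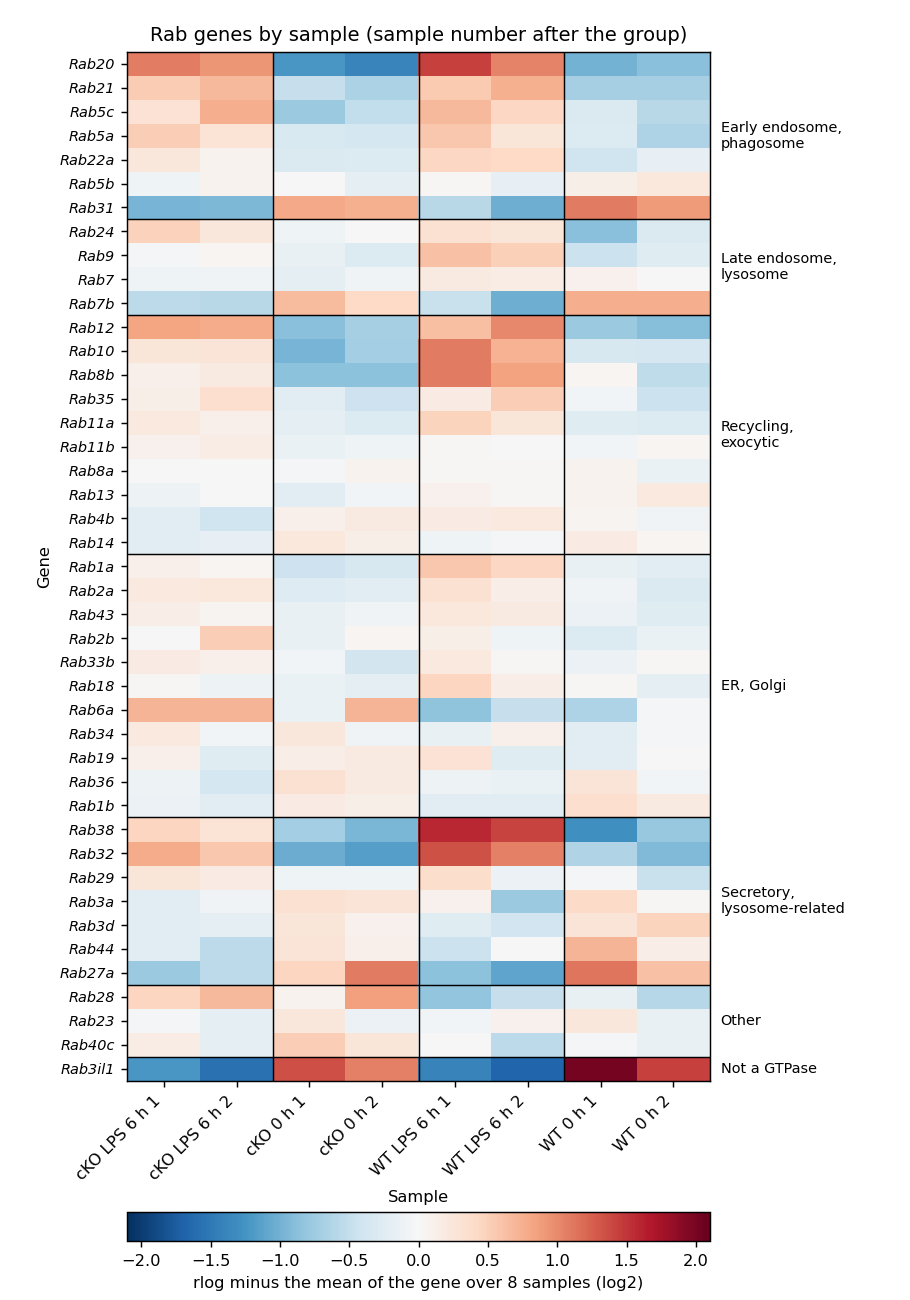
Expression of the 43 members in each of the 8 samples, as rlog minus the mean of that gene over the samples (log2, colour scale from blue for below to red for above); columns are cKO LPS, cKO 0 h, WT LPS and WT 0 h samples, and rows are grouped by the membrane route of each Rab. Rab20, Rab32, Rab12 and Rab21 are red in all 4 LPS samples, Rab31, Rab7b, Rab27a and Rab3il1 are blue in them, and Rab8b and Rab10 are redder in WT LPS than in cKO LPS samples.

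The first question was how macrophages of each genotype changed Rab expression after 6 h of LPS. In cKO cells 12 members rose and 5 fell (limma, adjusted p under 0.05), which is 39.5% of the 43, while 37.0% of all 11543 tested genes were called. In WT cells 15 members rose and 6 fell, or 48.8%, beside 42.2% of all tested genes. The share of members called was therefore near that of all genes. By direction, 19.6% of all tested genes rose and 17.5% fell in cKO, and 22.5% rose and 19.7% fell in WT. The members' median LPS difference was 0.21 in cKO and 0.16 in WT, beside -0.02 and -0.01 over all tested genes. With quantile normalization of the samples the calls split as 10 higher and 9 lower in cKO and 13 higher and 11 lower in WT. With samples centred on their medians the split stayed at 12 higher and 5 lower in cKO and 15 higher and 6 lower in WT. The excess of rises over falls thus shrank with quantile normalization but not with median centring. Without Rab3il1 the counts were 12 higher and 4 lower in cKO and 15 higher and 5 lower in WT.

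The members called in both genotypes were 12 that rose, Rab10, Rab11a, Rab12, Rab1a, Rab20, Rab21, Rab2a, Rab32, Rab38, Rab5a, Rab5c and Rab8b, and 4 that fell, Rab27a, Rab31, Rab3il1 and Rab7b. No member was called in opposite directions, and 35 of 43 had the same sign in both genotypes. A further 21 members were called in neither genotype, with differences between -0.58 and 0.57 in cKO and between -0.66 and 0.60 in WT. Rab14 was called in cKO alone, and Rab22a, Rab24, Rab9, Rab1b and Rab3d in WT alone. That does not show that the genotypes differ for these genes, since no interaction of genotype and LPS was called for any member, as given below. The authors' deposited table, at the same threshold, listed 10 members higher and 4 lower in cKO, which is 32.6% beside its 27.4% of the tested genes. For WT the authors' deposited table listed 12 higher and 6 lower, or 41.9% beside 28.2%. All of those calls had the same direction in the limma fit. The limma calls absent from the authors' deposited table were Rab11a, Rab14 and Rab2a in cKO and Rab22a, Rab24 and Rab2a in WT.

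**Figure D2:**
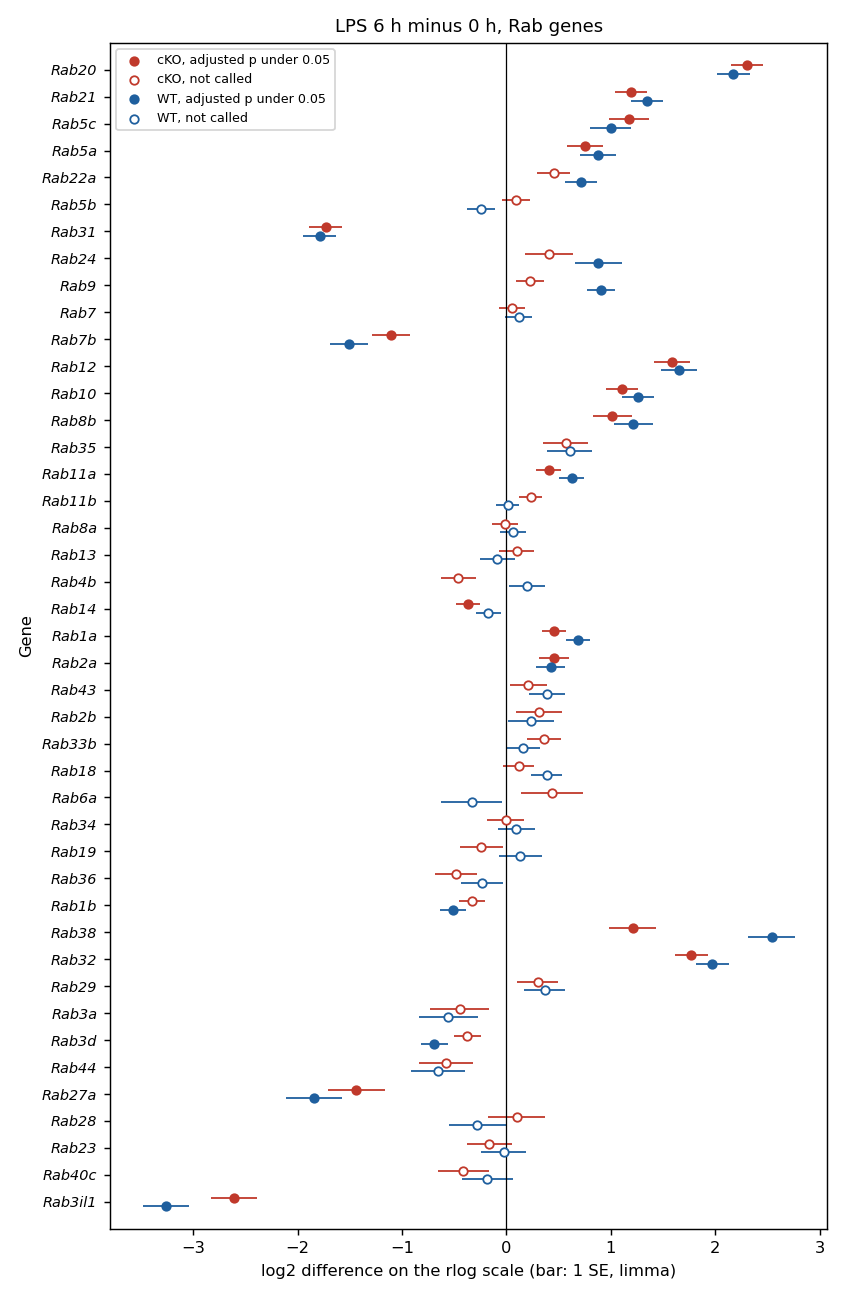
Difference of LPS 6 h minus 0 h for each member (log2 on the rlog scale, bars 1 SE from limma) in cKO (red) and WT (blue) cells; filled points have an adjusted p under 0.05 and rows are ordered by route. Rab20 lies above 2 in both genotypes, Rab3il1 lies below -2.5 in both, and Rab38 shows the widest gap between the genotypes, at 1.21 in cKO and 2.54 in WT.

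Promoter sequences of some genes that LPS moved are given as a description. The 250 bases before the RefSeq start are shown for members called in both genotypes that had a single promoter window. Of these, Rab20, Rab32 and Rab12 had the largest rises and Rab31 the largest fall, averaged over the genotypes. Members without a single window, among them Rab38 and Rab3il1, are not shown. Rab31 and Rab12 are also the neighbours on chromosome 17 that moved oppositely. Sequences are from RefSeq (GRCm38.p6), 5′ to 3′ on the gene's strand, which is the minus strand in all 4. Capitals mark the motifs CACGTG (the E-box) and GGGCGG (the GC box).
Rab20 (chr8:11478641-11478890): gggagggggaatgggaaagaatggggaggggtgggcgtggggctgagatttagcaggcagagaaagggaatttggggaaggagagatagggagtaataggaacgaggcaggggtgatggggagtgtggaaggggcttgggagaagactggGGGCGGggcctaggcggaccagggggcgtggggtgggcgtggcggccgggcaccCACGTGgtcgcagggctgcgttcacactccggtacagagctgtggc
Rab32 (chr10:10558208-10558457): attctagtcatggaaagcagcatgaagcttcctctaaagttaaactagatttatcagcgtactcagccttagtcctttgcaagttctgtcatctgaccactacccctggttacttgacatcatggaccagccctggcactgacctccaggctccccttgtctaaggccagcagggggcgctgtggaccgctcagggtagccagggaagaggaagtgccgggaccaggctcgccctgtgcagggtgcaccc
Rab12 (chr17:66519671-66519920): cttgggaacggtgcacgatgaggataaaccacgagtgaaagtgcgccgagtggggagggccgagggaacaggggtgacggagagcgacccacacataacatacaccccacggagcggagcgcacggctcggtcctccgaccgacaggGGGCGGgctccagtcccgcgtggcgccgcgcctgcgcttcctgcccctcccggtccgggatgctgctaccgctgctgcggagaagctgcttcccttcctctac
Rab31 (chr17:65772753-65773002): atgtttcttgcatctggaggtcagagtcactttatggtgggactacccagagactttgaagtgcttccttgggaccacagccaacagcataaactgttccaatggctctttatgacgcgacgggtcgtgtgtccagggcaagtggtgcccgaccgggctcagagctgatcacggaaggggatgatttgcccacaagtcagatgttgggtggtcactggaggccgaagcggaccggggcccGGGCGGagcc

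In the Rab20 window the E-box lies 46 to 41 bases and the GC box 100 to 95 bases before the RefSeq start. The GC box of Rab12 lies 103 to 98 bases and that of Rab31 10 to 5 bases before the RefSeq start. GENCODE places some starts elsewhere. There the genes Rab20, Rab32 and Rab12 reach into their windows, to positions 11478710, 10558265 and 66519729. The Rab20 E-box thus lies within the GENCODE gene. Rab31 ends at 65772752, next to its window. Windows were found for 37 of the 43 members, 50 windows in all, and 6 motifs were searched on both strands. The GC box GGGCGG was in 34 of the 50 windows of members (68.0%) and in 32.7% of all 32851 windows of that length. The E-box CACGTG was in 7 of the 50 and in 6.02% of all. Windows of members that rose in both genotypes held it in 3 of 10 cases (Rab20, Rab21 and Rab5a), and windows of members that fell in both held it in 3 of 8 (Rab27a and Rab3il1). The 10 windows came from 10 genes, but the 8 came from only 3 genes. All 32851 windows cover 27025 genes, including genes below the minimum expression. The NF-kB consensus was in 3 of the 50 windows of members and in 7.25% of all. The interferon-stimulated response element was in 1 of the 50 and in 2.98% of all, the GAS element TTCNNNGAA in 3 and in 7.02%, and the AP-1 site TGANTCA in 1 and in 6.75%. Matches of different motifs that overlap were each counted. A match here is only a description of these letters.

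Early endosome and phagosome Rabs had a median LPS difference of 0.75 in cKO and 0.88 in WT. Of these 7 members 4 rose and 1 fell in cKO, while 19.6% of all tested genes rose and 17.5% fell. In WT 5 rose and 1 fell, beside 22.5% and 19.7% of all tested genes. Differences between the routes were not tested. Rab20 acts on early phagosomes and endosomes and was the member with the largest rise in cKO. It stood at 10.26 and 10.12 rlog in cKO LPS samples, 7.97 and 7.80 in cKO 0 h samples, 10.62 and 10.23 in WT LPS samples, and 8.20 and 8.31 in WT 0 h samples. Every LPS sample was above every 0 h sample, with no overlap. The LPS difference was 2.30 ± 0.16 in cKO and 2.17 ± 0.16 in WT (SE, n = 2 per group; limma adjusted p = 2.9e-05 and 2.6e-05). Rab20 overlaps E230013L22Rik, whose mean rlog was 2.78.

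Rab21, which steers integrins through early endosomes, stood at 7.59 and 7.74 in cKO LPS, 6.56 and 6.38 in cKO 0 h, 7.60 and 7.80 in WT LPS and 6.35 and 6.35 in WT 0 h samples. All LPS samples were higher by about the same amount, 1.19 ± 0.15 in cKO and 1.35 ± 0.15 in WT (limma adjusted p = 0.000558 and 0.000219). Rab5c, an isoform of the Rab that drives early endosome fusion, stood at 9.64 and 10.10 in cKO LPS, 8.56 and 8.82 in cKO 0 h, 10.02 and 9.77 in WT LPS and 9.04 and 8.76 in WT 0 h samples. Its LPS difference was 1.18 ± 0.19 in cKO and 1.0 ± 0.19 in WT (limma adjusted p = 0.0019 and 0.00355), again with no overlap.

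The Rab5 isoforms were not moved equally by LPS. Rab5a rose by 0.75 in cKO and 0.88 in WT (limma adjusted p = 0.00979 and 0.00387), while Rab5b, with 0.09 and -0.25, was not called in either. The Rab5a call in cKO was lost without cKO LPS sample 1 (adjusted p = 0.0756). Rab22a, which sorts cargo from early to recycling endosomes, differed by 0.45 in cKO (limma adjusted p = 0.0512, not called) and rose by 0.71 in WT (0.00671). Its close paralog Rab31, which acts between the trans-Golgi network and endosomes, fell in both. Rab31 stood at 9.22 and 9.26 in cKO LPS, 10.999 and 10.949 in cKO 0 h, 9.62 and 9.17 in WT LPS and 11.28 and 11.09 in WT 0 h samples. All LPS samples were below all 0 h samples, by -1.73 ± 0.16 in cKO and -1.79 ± 0.16 in WT (limma adjusted p = 0.000109 and 6.65e-05).

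Of 4 late endosome Rabs 1 fell in cKO, and 2 rose and 1 fell in WT (1 and 3 of 4 called, beside 37.0% and 42.2% of all tested genes). Rab7b, which returns cargo from late endosomes to the trans-Golgi network and limits Toll-like receptor signalling, stood at 9.48 and 9.45 in cKO LPS, 10.69 and 10.45 in cKO 0 h, 9.56 and 9.0 in WT LPS and 10.79 and 10.79 in WT 0 h samples. Each LPS sample was below each 0 h sample, with an LPS difference of -1.11 ± 0.18 in cKO and -1.51 ± 0.18 in WT (limma adjusted p = 0.002 and 0.000308). Rab7, the most abundant member per length, differed by only 0.05 and 0.12 and was not called. Rab7 had 12.71 and 12.72 rlog in cKO LPS, 12.60 and 12.73 in cKO 0 h, 12.98 and 12.95 in WT LPS and 12.89 and 12.80 in WT 0 h samples, and the groups with and without LPS overlapped in cKO.

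Rab9, which acts between late endosomes and the trans-Golgi network, rose in WT by 0.91 (limma adjusted p = 0.000863) and differed by 0.22 in cKO (0.223). Rab24, linked to autophagy, rose in WT by 0.88 (0.0141) and differed by 0.41 in cKO (0.194). The Rab24 call was lost without WT LPS sample 1 (adjusted p = 0.0565) or WT 0 h sample 1 (0.0923). Rab24 overlaps Prelid1, and reads of both genes may not have been separated.

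Recycling and exocytic Rabs comprised 10 members, of which 4 rose and 1 fell in cKO and 4 rose in WT (5 and 4 of 10 called, beside 37.0% and 42.2% of all tested genes). Rab12, which directs receptors from recycling endosomes toward lysosomes, stood at 7.70 and 7.66 in cKO LPS, 6.00 and 6.19 in cKO 0 h, 7.51 and 7.89 in WT LPS and 6.09 and 5.99 in WT 0 h samples. The LPS samples of both genotypes shared 1 range and the 0 h samples another, far below. The LPS difference was 1.59 ± 0.17 in cKO and 1.66 ± 0.17 in WT (limma adjusted p = 0.000233 and 0.000143).

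Rab10, which brings Toll-like receptor 4 to the surface of macrophages, stood at 9.59 and 9.60 in cKO LPS, 8.36 and 8.62 in cKO 0 h, 10.43 and 10.07 in WT LPS and 9.0 and 8.98 in WT 0 h samples. LPS raised it by 1.10 ± 0.15 in cKO and by 1.26 ± 0.15 in WT (limma adjusted p = 0.000806 and 0.000308). Rab10 overlaps the antisense gene Rab10os. Rab8b, a paralog of Rab8a in exocytic traffic, stood at 11.44 and 11.51 in cKO LPS, 10.46 and 10.46 in cKO 0 h, 12.43 and 12.18 in WT LPS and 11.37 and 10.81 in WT 0 h samples. Its LPS difference was 1.01 ± 0.19 in cKO and 1.22 ± 0.19 in WT (limma adjusted p = 0.00341 and 0.00108), and within each genotype the LPS samples were above those at 0 h. In both genes the cKO LPS samples lay between the WT LPS samples and the WT 0 h samples. Rab8a itself, with -0.01 and 0.06, was not called.

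Smaller changes in this group were those of Rab11a and Rab14, both on recycling endosomes. Rab11a rose by 0.40 in cKO and 0.62 in WT (limma adjusted p = 0.0305 and 0.0037), but with quantile normalization the differences were 0.02 and 0.13 (adjusted p = 0.923 and 0.397). Rab14 fell by 0.37 in cKO (limma adjusted p = 0.0367), and its value in WT was -0.17 (0.265). Leaving out any single cKO library also ended the cKO calls of Rab11a (adjusted p between 0.0771 and 0.162) and of Rab14 (0.0764 to 0.163). The rest of the group, Rab11b, Rab13, Rab35 and Rab4b, were not called in either genotype.

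Of 11 ER and Golgi Rabs 2 rose in cKO, and 2 rose and 1 fell in WT (18.2% and 27.3% called, beside 37.0% and 42.2% of all tested genes). Rab1a and Rab2a, both in traffic between the ER and the Golgi, rose by 0.46 and 0.46 in cKO and by 0.69 and 0.42 in WT (limma adjusted p = 0.0155 and 0.0356 in cKO, 0.00187 and 0.043 in WT). Rab1b, the paralog of Rab1a, fell by 0.51 in WT (limma adjusted p = 0.0113) and stood at -0.33 in cKO (0.0675). The Rab1b call ended without WT 0 h sample 1 (adjusted p = 0.0642). Quantile normalization took the Rab1a difference to 0.06 in cKO and 0.07 in WT (adjusted p = 0.691 and 0.643). Of the 8 left-out libraries, 3 ended the Rab1a call in cKO (adjusted p up to 0.0968), 4 the Rab2a call in cKO (up to 0.139) and 7 the Rab2a call in WT (up to 0.212).

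Of 7 secretory and lysosome-related Rabs 2 rose and 1 fell in cKO, and 2 rose and 2 fell in WT (42.9% and 57.1% called, beside 37.0% and 42.2% of all tested genes). Rab32 and its paralog Rab38 build lysosome-related organelles such as melanosomes, and Rab32 also acts against bacteria within macrophage vacuoles. Rab32 stood at 11.67 and 11.47 in cKO LPS, 9.85 and 9.74 in cKO 0 h, 12.24 and 11.95 in WT LPS and 10.27 and 9.98 in WT 0 h samples. Every LPS sample was above every 0 h sample, by 1.77 ± 0.16 in cKO and 1.97 ± 0.16 in WT (limma adjusted p = 9.16e-05 and 3.77e-05). Rab38 was far lower in level, at 4.84 and 4.68 in cKO LPS, 3.67 and 3.43 in cKO 0 h, 5.98 and 5.81 in WT LPS and 3.10 and 3.60 in WT 0 h samples. The 0 h samples of both genotypes overlapped, and the LPS samples did not, those of cKO lying between the 0 h samples and the WT LPS samples. LPS raised Rab38 by 1.21 ± 0.22 in cKO and by 2.54 ± 0.22 in WT (limma adjusted p = 0.00339 and 6.16e-05).

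Rab27a, which docks secretory granules and exosome-bearing endosomes at the surface, stood at 3.79 and 4.02 in cKO LPS, 5.02 and 5.67 in cKO 0 h, 3.71 and 3.46 in WT LPS and 5.68 and 5.18 in WT 0 h samples. LPS samples were below 0 h samples throughout, by -1.44 ± 0.27 in cKO and -1.84 ± 0.27 in WT (limma adjusted p = 0.00394 and 0.000899). Rab3d, a Rab of regulated secretion, fell by 0.69 in WT (limma adjusted p = 0.00311) and stood at -0.37 in cKO (0.0515). Rab29, Rab3a and Rab44 of this group, and Rab23, Rab28 and Rab40c outside the named routes, were not called. Rab3il1, the exchange factor, had the largest fall. It stood at 7.27 and 6.92 in cKO LPS, 9.85 and 9.56 in cKO 0 h, 7.08 and 6.82 in WT LPS and 10.51 and 9.93 in WT 0 h samples, with LPS differences of -2.61 ± 0.22 in cKO and -3.26 ± 0.22 in WT (limma adjusted p = 7.83e-05 and 2.12e-05).

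**Figure D3:**
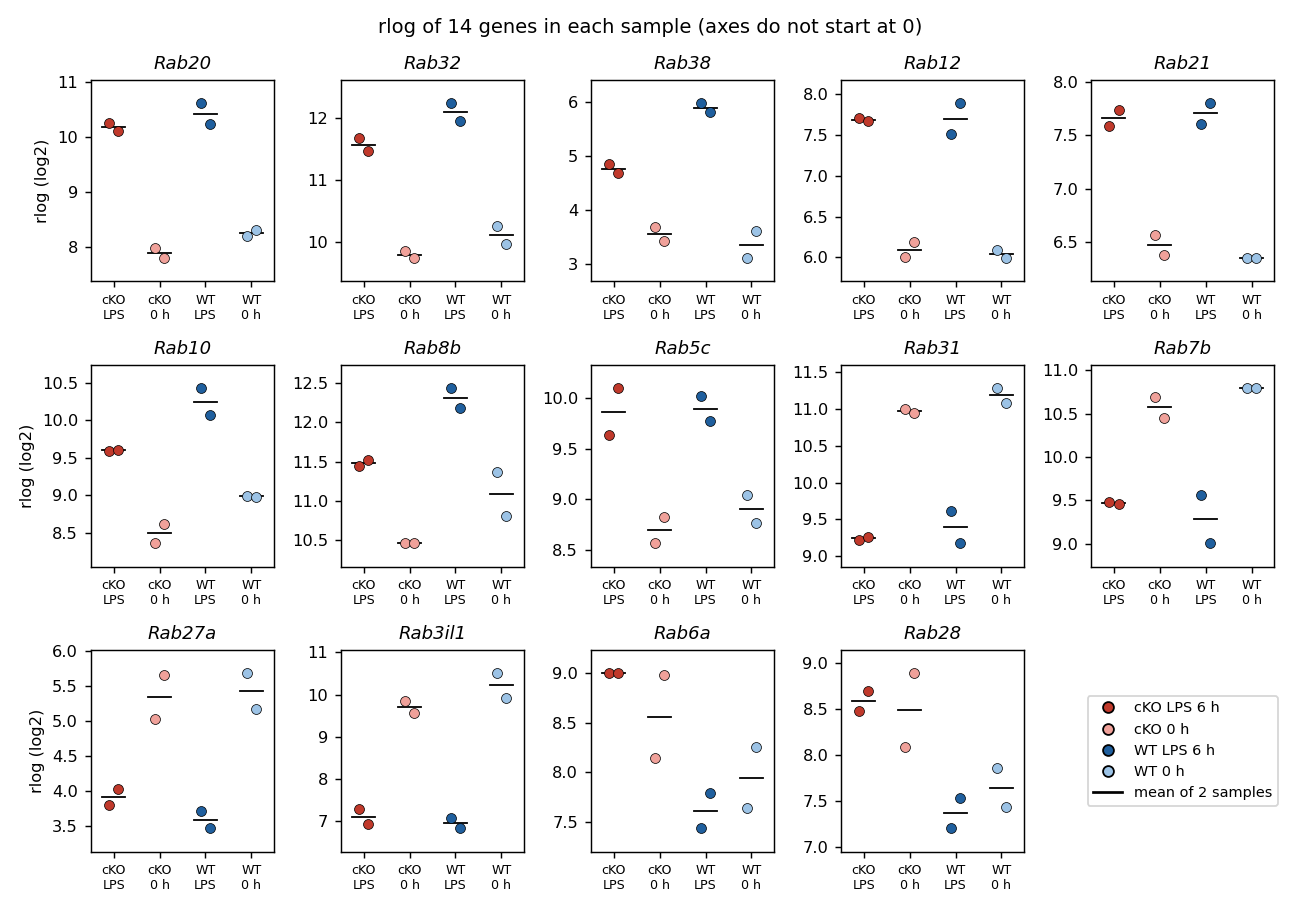
Level of 14 members in each sample (rlog, log2 units; axes do not start at 0), with cKO LPS, cKO 0 h, WT LPS and WT 0 h samples from left to right and a line at the mean of the 2 samples. In the first 8 panels (Rab20 to Rab5c) each genotype's LPS samples lie above its 0 h samples, in Rab31, Rab7b, Rab27a and Rab3il1 below them, and in Rab6a and Rab28 the cKO LPS samples lie above the WT LPS samples.

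The second question was whether loss of PTIP changed Rab expression at either time. At 0 h limma called 0 of 43 members between cKO and WT, beside 0.251% of all tested genes (0.0520% higher and 0.199% lower). At an unadjusted p under 0.05 there were 6, and the authors' deposited table also listed 0 members, beside 1.52% of tested genes. Differences at 0 h ran from -0.62 for Rab8b to 0.84 for Rab28. After LPS 2 members were higher and 2 lower in cKO, which is 9.30% of the 43, beside 3.97% of all tested genes (1.51% higher and 2.46% lower). The authors' deposited table gave the same 4 genes in the same directions, beside 5.59% of tested genes. The members' median difference after LPS was -0.04, beside -0.03 over all tested genes.

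Rab6a and Rab28 were the 2 higher in cKO after LPS. Rab6a, a Rab of the Golgi that drives transport to the ER and the surface, stood at 9.0 and 9.0 rlog in cKO LPS and 7.43 and 7.79 in WT LPS samples. At 0 h it was 8.14 and 8.99 in cKO and 7.63 and 8.25 in WT samples. The genotypes were apart after LPS and overlapped at 0 h, with a difference of 1.39 ± 0.29 after LPS (limma adjusted p = 0.0411). In the authors' deposited table the log2 fold change of Rab6a after LPS was 1.61, with an adjusted p of 1.34e-06. Rab6a overlaps Mrpl48 on the opposite strand, whose difference between genotypes was -0.03 after LPS and -0.02 at 0 h. Rab28, an atypical Rab known from cilia and photoreceptors, stood at 8.47 and 8.70 in cKO LPS and 7.20 and 7.53 in WT LPS samples. At 0 h it was 8.09 and 8.89 in cKO and 7.86 and 7.43 in WT samples, so that cKO samples were above WT samples at both times. Its difference was 1.22 ± 0.27 after LPS (limma adjusted p = 0.0473), and the authors' deposited table gave 1.44 with an adjusted p of 0.000104.

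Rab38 and Rab8b were the 2 lower in cKO after LPS. Rab38, whose values by sample are given above, differed by -1.13 ± 0.22 after LPS (limma adjusted p = 0.0335) and by 0.20 at 0 h (0.814). The authors' deposited table listed -1.47 for Rab38 after LPS, with an adjusted p of 0.0311. Rab8b differed by -0.83 ± 0.19 after LPS (limma adjusted p = 0.049) and by -0.62 at 0 h (0.275), and the authors' deposited table listed -0.85 with an adjusted p of 0.00217 after LPS. Rab10 differed by -0.65 ± 0.15 after LPS and missed the threshold (limma adjusted p = 0.0539). It was called with samples centred on their medians (0.0439), with the replicate block on the shared sample numbers (0.0481), without either cKO 0 h sample (0.0494 and 0.0491) or without WT LPS sample 2 (0.0411), and over all alternatives its adjusted p ran up to 0.26.

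All 4 calls after LPS ended when any 1 of the 4 LPS libraries was left out, which leaves 1 sample in a group. Calls over all tested genes fell as well without each of these libraries, so this loss is not particular to the members. Rab8b was also lost without either cKO 0 h library, and Rab28 without either WT 0 h library. Without the filter on low values 0 of the 4 were called, and 1 each with quantile normalization and without the variance trend. Calls over all tested genes also fell, from 458 to 208 without the filter, 235 with quantile normalization and 301 without the trend. The directions held, with sizes between 0.70 and 1.57 when an LPS library was left out.

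Averaged over both times, 2 members were higher and 2 lower in cKO, or 9.30%, beside 7.02% of all tested genes (2.88% higher and 4.14% lower). Rab6a was higher by 1.0 and Rab28 by 1.03, and Rab8b differed by -0.73 and Rab10 by -0.57 (limma adjusted p = 0.028, 0.02, 0.0193 and 0.0207). With samples centred on their medians the split was 2 higher and 4 lower. Leaving out any 1 library lowered the averaged calls over all tested genes as well. All 4 averaged calls ended without cKO LPS sample 1 (adjusted p between 0.0612 and 0.0903) or cKO LPS sample 2 (0.0811 to 0.108). WT LPS sample 1 ended 3 (up to 0.0826), WT 0 h sample 1 ended 2 (up to 0.0895), and WT 0 h sample 2 and cKO 0 h sample 2 ended 1 each (0.051 and 0.0518).

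The interaction of genotype and LPS asks whether LPS moved a gene by a different amount in cKO than in WT. It was called for 0 of 43 members and for 0.00% of tested genes by limma, with 3 members and 751 genes at an unadjusted p under 0.05. Rab38 had the smallest adjusted p of the members, 0.652, with an interaction of -1.33 ± 0.31 log2 units (n = 2 per group). Rab9 followed at -0.68 and Rab4b at -0.66 (limma adjusted p = 0.682 and 0.707). Rab4b returns receptors quickly from early endosomes to the surface.

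**Figure D4:**
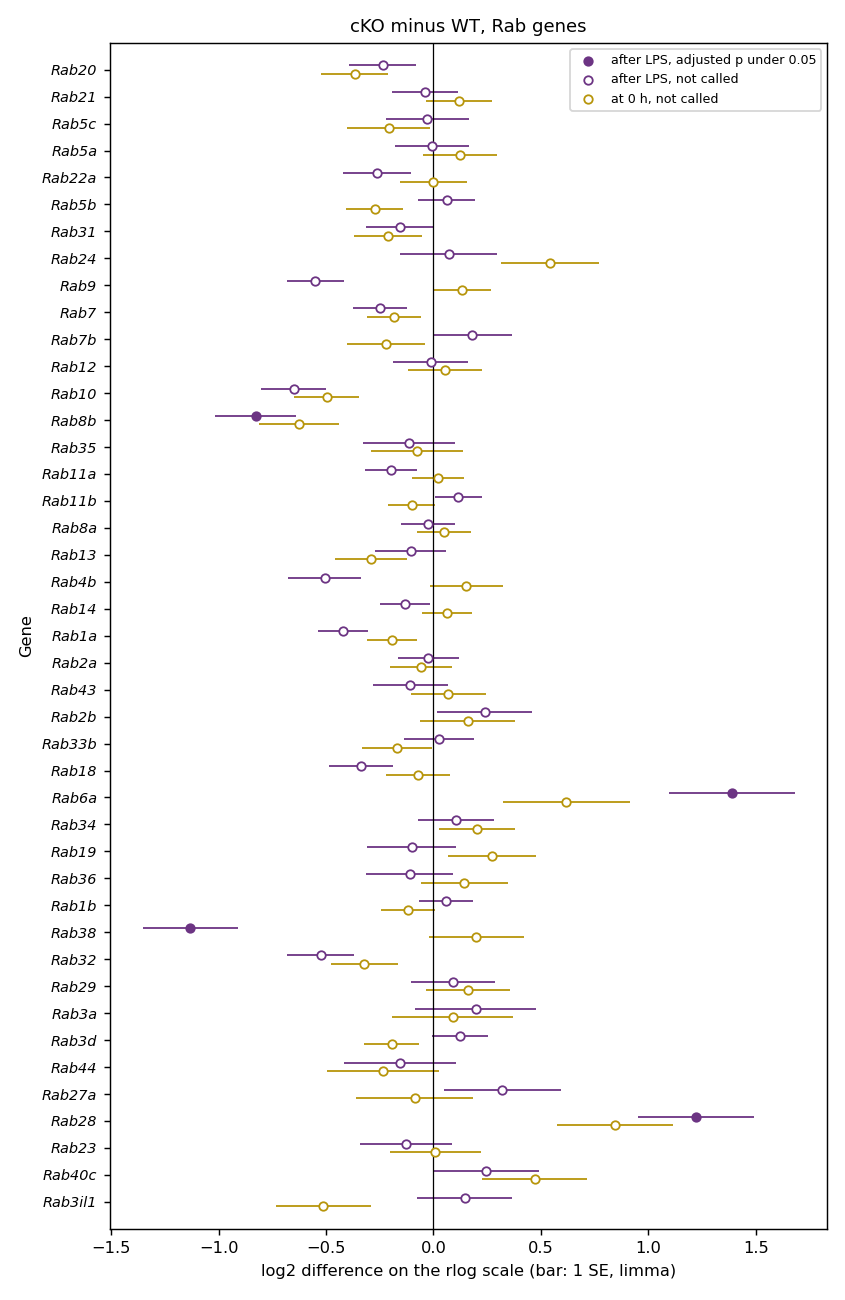
Difference of cKO minus WT for each member (log2 on the rlog scale, bars 1 SE from limma) after LPS (purple) and at 0 h (gold); filled points have an adjusted p under 0.05. Rab6a and Rab28 lie to the right and Rab38 and Rab8b to the left as the only filled points, all after LPS.

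The machinery around the Rabs was described with 6 lists, set beside the same background shares as above. Of 54 tested exchange factors, which include Rab3il1, 14 rose and 6 fell in cKO and 13 rose and 8 fell in WT (37.0% and 38.9% called). Their median LPS difference was 0.15 in cKO and 0.10 in WT. The largest rises were those of Dennd3, which activates Rab12, at 1.82 in cKO and 2.36 in WT, Rab3ip (Rabin8), which activates Rab8 proteins, at 1.57 and 1.97, and Dennd1b, an exchange factor for Rab35, at 1.48 and 1.82. The largest falls after Rab3il1 were those of Rin3, a Rab5-family exchange factor, at -0.92 and of Trappc1, a TRAPP subunit, at -0.80 in cKO, and of Flcn at -1.11 and Trappc1 at -0.78 in WT. The Rin3 call in cKO ended without cKO LPS sample 1 (limma adjusted p = 0.0979), cKO 0 h sample 1 (0.0578) or cKO 0 h sample 2 (0.0686).

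Of 35 tested GAPs, 4 rose and 7 fell in cKO and 6 rose and 10 fell in WT (31.4% and 45.7% called, medians -0.19 and -0.20). Over all tested genes 37.0% and 42.2% were called. By direction, 19.6% of all tested genes rose and 17.5% fell in cKO, and 22.5% rose and 19.7% fell in WT. Tbc1d1, a GAP for Rab8a and Rab10, rose by 2.08 in cKO and 2.31 in WT, and Tbc1d13, which acts on Rab35, rose by 2.02 and 1.89. The third largest rise was that of Tbc1d9b at 0.95 in cKO and of Tbc1d9 at 0.80 in WT. Tbc1d2 (Armus), a GAP for Rab7, fell, with -1.52 in cKO and -1.92 in WT, as did Tbc1d31, with -1.28 and -1.53. The next falls were those of Sgsm2 at -1.17 in cKO and of Tbc1d10a, a GAP for Rab27a and Rab35, at -1.29 in WT. The Tbc1d9 call ended without WT LPS sample 1 (limma adjusted p = 0.13) or WT 0 h sample 2 (0.124), and that of Sgsm2 without cKO LPS sample 2 (0.0827) or cKO 0 h sample 2 (0.059). The Tbc1d10a call ended without the filter on low values (0.0502).

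Effectors showed the widest range. Of 43 tested, 10 rose and 8 fell in cKO and 11 rose and 10 fell in WT (41.9% and 48.8% called, medians 0.07 and -0.07). Rilpl1, which binds Rab8 and Rab10 proteins that the kinase Lrrk2 has phosphorylated, rose by 3.89 in cKO and 4.40 in WT. Rab11fip1, an effector of Rab11, rose by 2.08 in cKO and 2.27 in WT. Lrrk2, which is recruited by Rab29 and phosphorylates several Rabs, rose by 1.93 in cKO and 2.51 in WT. The Rab5 effectors Appl1 and Appl2 moved oppositely, at 1.52 and -1.74 in cKO and at 2.33 and -1.60 in WT. Bicd1, a dynein adaptor of Rab6, was at -1.42 and Rab11fip5 at -1.24 in cKO, and Rab11fip5 at -1.31 and Mical1 at -1.18 in WT, all called.

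Of 13 carriers and prenylation factors 2 rose and 1 fell in cKO, and 1 rose and 1 fell in WT (23.1% and 15.4% called, beside the same 37.0% and 42.2%). Yipf6, of a family of Golgi membrane proteins that bind Rabs, rose by 0.75 and 1.08. Gdi2, which extracts inactive Rabs from membranes, fell, with -0.51 in cKO and -0.41 in WT. The Gdi2 call in cKO ended without either cKO LPS sample (limma adjusted p = 0.0782 and 0.0862) or cKO 0 h sample 1 (0.0799). In WT it ended without either cKO LPS sample (0.0648 and 0.0647), WT LPS sample 2 (0.165) or either WT 0 h sample (0.0523 and 0.164).

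Of the 10 subunits of the HOPS and CORVET tethers, which Rab7 and Rab5 recruit for fusion, 2 rose in cKO and 1 rose and 1 fell in WT (20.0% called in each). Vps33a rose by 0.54 in cKO and 0.55 in WT. Vps16 was higher by 0.49 in cKO, and Vps33b was at -0.45 in WT. Without cKO LPS sample 2 the cKO calls of Vps33a and Vps16 ended (limma adjusted p = 0.0518 and 0.149), and Vps16 was also lost without cKO LPS sample 1 (0.079) or cKO 0 h sample 2 (0.16). Vps33b lost its call whichever of the 8 libraries was left out, for example without WT 0 h sample 1 (0.208).

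The Arf and Arl GTPases, a related family of membrane traffic, gave 8 of 26 higher and 7 lower in cKO and 7 higher and 7 lower in WT (57.7% and 53.8% called, medians 0.00 and 0.12). Arl4a rose by 0.83 in cKO and 1.82 in WT, and Arf3 and Arl5c rose by 0.73 each in cKO, while Arf4 and Arf5 rose by 0.96 and 0.89 in WT. Arl6, a ciliary Arf-like protein, fell, with -0.86 in cKO and -0.77 in WT, and so did Arl11, with -0.83 in cKO and -0.70 in WT. Arl16 fell by 0.68 in cKO, and Arl10 was at -0.73 in WT. Some of these calls ended on leaving out 1 library. Arl6 ended in cKO without cKO LPS sample 1 (limma adjusted p = 0.08) or cKO 0 h sample 2 (0.0676), and in WT without WT LPS sample 2 (0.105) or WT 0 h sample 1 (0.103). Arl5c ended without cKO LPS sample 2 (0.0699). Arl16 ended without any cKO library (up to 0.0876), Arf5 without any WT library (up to 0.0935), and Arl10 without any library but WT 0 h sample 1 (up to 0.26).

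**Figure D5:**
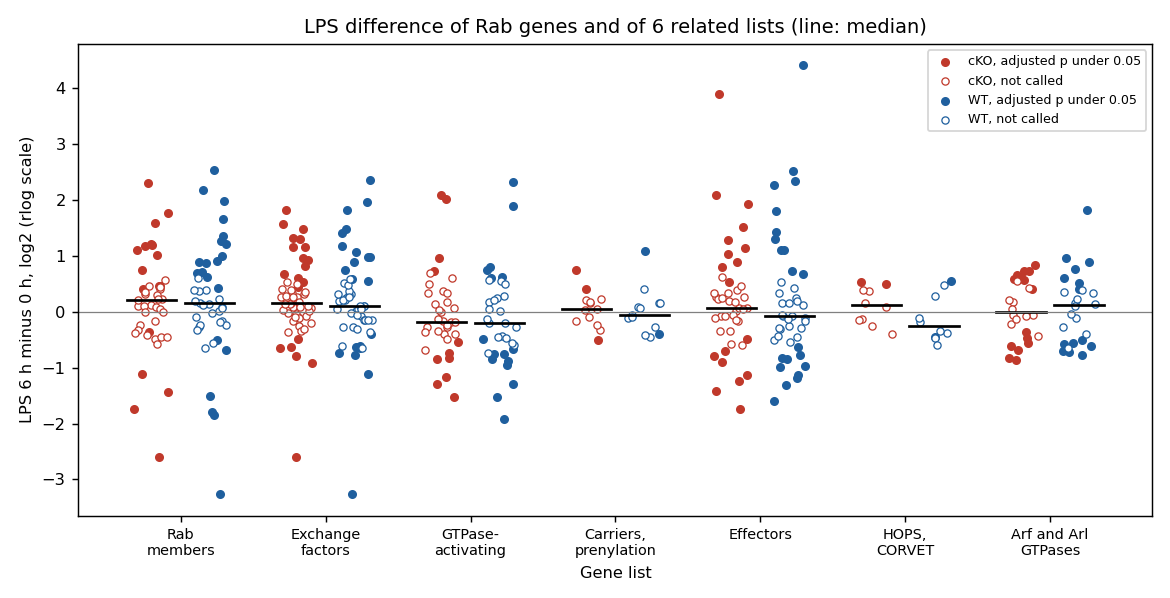
LPS 6 h minus 0 h (log2 on the rlog scale) for each tested gene of the Rab members and of 6 related lists, in cKO (red, left of each pair) and WT (blue); filled points have an adjusted p under 0.05 in limma and black lines are medians. The Rab members' medians of 0.21 and 0.16 lie slightly above 0 and those of the GTPase-activating proteins, -0.19 and -0.20, slightly below, while single genes spread far beyond either.

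Between genotypes, 0 genes of these lists were called at 0 h. At an unadjusted p under 0.05 there were 7 exchange factors, 2 GAPs, 1 carrier or prenylation factor, 3 effectors, 0 tether subunits and 4 Arf or Arl genes. After LPS 7 genes other than members were called. Rabgef1 (Rabex-5), which activates Rab5, differed by -0.84, Tbc1d23 by -0.65, Yipf6 by -0.62, the Rab5 effector Appl1 by -0.85 and Inpp5b, a phosphatase that binds Rab5 and Rab6, by -1.07 (limma adjusted p = 0.017, 0.029, 0.037, 0.0207 and 0.0393). Higher in cKO were Flcn, a subunit of a complex that acts on lysosomes, by 0.70 and Arl10 by 1.29 (0.0437 and 0.0326). Averaged over times, Trappc6b (1.35), Tbc1d8 (-0.87) and Arl11 (0.48) were called as well (limma adjusted p = 0.0343, 0.0254 and 0.031), and Rabgef1 (-0.78), Tbc1d23 (-0.50), Inpp5b (-0.75), Appl1 (-0.45), Yipf6 (-0.46) and Arl10 (0.95) were called again.

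No interaction was called for any gene of the 6 lists. Calls between genotypes over all tested genes also fell without any 1 LPS library. Without cKO LPS sample 1 or 2, 15 of these 16 calls between genotypes ended (adjusted p up to 0.174 and 0.256), the averaged call of Rabgef1 being the exception. WT LPS sample 1 ended 13 calls (up to 0.155) and WT LPS sample 2 ended 5 (up to 0.0932). Of the 0 h libraries, cKO sample 1 ended 4 (up to 0.081), cKO sample 2 ended 5 (up to 0.0705), WT sample 1 ended 7 (up to 0.113) and WT sample 2 ended 5 (up to 0.0796). The averaged difference of Rabgef1 was thus the single call between genotypes in these lists that did not depend on any 1 library.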

How the data were processed

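Poly(A) RNA-seq of 8 BMDM samples in 4 groups was analysed. The tools named in the submitters' processing notes are HISAT2 2.1.0, featureCounts, DESeq2 and CASAVA, with the GRCm38 genome. The authors deposited 1 table of rlog values, log2 expression after a regularised log transformation. It shrinks genes with few reads and so understates the differences of low genes. Per the file headers, the table also holds fold changes (log2) computed by the authors with their p-values, raw and adjusted. Counts were not used here, so depth is unknown. Strand and multi-mapping settings are not given in the sources used: overlapping genes and close paralogs are uncertain.

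The 11543 genes whose mean rlog reached 3 were fitted with 4 group means on every sample, using limma 3.58.1 (R 4.3.3; eBayes with a variance trend; 4 residual and 4.4 prior degrees of freedom). There were 6 comparisons: the LPS difference in cKO and in WT, the genotype difference after LPS, at 0 h and averaged, and the interaction. Calls are Benjamini-Hochberg adjusted p under 0.05 over all tested genes. In 1 simulation on the LPS comparison in cKO, 200 genes among 11543 were changed. The fit recovered 53% of changes of log2 size 1 and 92% of size 2, with 7 false calls. In the real comparison 37.0% of tested genes were called, a far larger share, so these recovery rates do not carry over to it.

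Members, routes and gene lists were chosen with earlier results of these data known, so none is independent support for a pattern. Counts over members that passed the minimum describe those genes only. Values in every sample are given for members called with a log2 difference of at least 1, or called in a genotype comparison, and for Rab7; called members are otherwise named with their differences. From each list, up to 3 of the largest rises and falls called after LPS in each genotype and every gene called between genotypes are named. A gene that this rule names is not reported here. Gene positions and exon lengths are from GENCODE M21, and promoters are from RefSeq. Of the 50 member windows, the last bases of 41 lie in a GENCODE transcript of that gene on its strand. Alternatives were other filters, scalings, variance settings, replicate blocks and leaving out each library.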

Additional observations from a re-analysis of the deposited data

How the results depend on the processing

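The counts of members called after LPS stayed within 1.5 times under every alternative run, at 14 to 19 in cKO and 19 to 24 in WT, and at 12 to 18 and 20 to 22 when 1 library was left out. In cKO 12 of 17 calls and in WT 16 of 21 were kept under all alternatives, and none of the calls turned in direction. Of the 4 members called between cKO and WT after LPS, 0 remained without the filter on low values, 1 with quantile normalization and 1 without a variance trend, and 0 to 4 were called when 1 library was left out. Averaged over times, 0 of 4 were called without the filter, and 0 to 5 when 1 library was left out. Over all tested genes the calls between cKO and WT after LPS fell too, from 458 to 208 of 28499 genes without the filter. They fell to 235 with quantile normalization and to 301 without a variance trend, and also without any 1 LPS library. The averaged calls fell from 810 to 359 without the filter. The cause was not tested. At 0 h and for the interaction 0 members were called under every alternative. The difference of Rab38 at 0 h, 0.20 and not called, lay between -0.048, without WT 0 h sample 1, and 0.45, without WT 0 h sample 2. Leaving Rab3il1 out of the members, chosen after seeing the data, gave 16 and 20 calls after LPS and left the counts of the other comparisons at 0 or 4, with 5 instead of 6 members at an unadjusted p under 0.05 at 0 h. Of 76 called values of named list genes and Paxip1, 42 were kept under all alternatives and 0 turned in direction.

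The labels do not say that a sample number marks 1 mouse, and same-numbered samples deviated together with r = 0.311 between the cKO groups, 0.222 between the WT groups and 0.2 between genotypes after LPS, and with r = -0.0418 between genotypes at 0 h. With a replicate block on the number, 17 members were called after LPS in cKO, 22 in WT, 6 between genotypes after LPS and 5 averaged. With a replicate block on genotype and number, 17 and 23 were called after LPS. With 2 samples a group and no depth, small changes of low genes could not be resolved.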
